A study of Mus musculus with 6 samples.

Results

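The cytokine, Toll-like receptor and NF-kB genes described here are a fixed set of 37 symbols, all of which had a row in a table of 45777 genes. They were picked out by gene symbol, with no threshold on their values, from RNA sequencing of the anterior cingulate cortex, part of the medial frontal cortex. All 6 libraries came from BALB/c mice, an inbred laboratory strain: 3 from mice of the non-stress (NS) group and 3 from mice given social defeat stress (smSDS) for 5 days, a procedure of repeated losing encounters with a dominant mouse. No transgene, drug or deletion is named for either group. Not given in the sources used here were the sex and age of the mice and whether each library came from its own animal. The p-values therefore measure the spread between these libraries, which may be technical, and in bulk tissue fewer cells of a type cannot be told apart from less RNA per cell.

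Cytokines are small secreted proteins through which cells signal inflammation. Toll-like receptors recognise microbial products and molecules released by damaged cells, and they signal through adaptors, MyD88 for most of them and TRIF for Tlr3, to NF-kB, a family of transcription factors that the inhibitor IkB-alpha (gene Nfkbia) holds in the cytoplasm until its degradation frees them. NF-kB then drives cytokine, chemokine and adhesion genes and its own inhibitor, which closes a feedback loop. In brain tissue at rest, microglia, astrocytes, endothelial cells and neurons each carry part of this machinery, while the inducible cytokines are sparsely transcribed.

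The libraries held 41623899 to 47212982 counts each. On principal component 1 of log2 CPM (counts scaled to a library total of 1e+06, after TMM size factors), which held 34.5% of the variance of 19227 genes, non-stress 1 lay at -11.7 beside the stress libraries at -20.4 to -14.9, while non-stress 2 and 3 lay at 37.4 and 27.4. The labels name no batch. Marker lists were used to check the tissue. 8 neuron markers, all with enough counts for the test, summed to 10576 to 10717 CPM without stress and 10430 to 10561 CPM with it, and 16 microglia markers summed to 710 to 714 and 700 to 738 CPM. Neutrophil markers were near absent, at 0.301 to 0.447 CPM without stress and 0.0446 to 0.0965 CPM with it, and had Ly6g and Camp at 0 in every library, and 10 lymphocyte markers summed to 0.603 to 1.58 CPM with Cd8a and Nkg7 at 0.

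The promoters of several of these genes hold letters that match the binding consensus of NF-kB. RefSeq promoter windows (GRCm38.p6) matched 28 of the 37 genes, and the 250 bases before each start were searched on both strands for the NF-kB consensus. Of the members' 32 windows, some genes having more than 1, 10 (31.2%) held it. Among all 32851 RefSeq promoter windows, cut to the same length, 3.90% did. By gene the number was 8 of 28 (28.6%), as Nfkb2 held the consensus in more than 1 window. The share of all genes was not taken. A match describes letters in a window and is not a bound site. The 3 windows below are shown whole because they belong to a gene with no counts, a gene at the edge of detection and the gene of the inhibitor itself. They are written 5′ to 3′ on the gene's strand with the consensus in capitals, for Il6 at chr5:30012864-30013113 (plus strand), Cxcl10 at chr5:92348890-92349139 (minus strand) and Nfkbia at chr12:55492648-55492897 (minus strand, with the match on the opposite strand).
Il6: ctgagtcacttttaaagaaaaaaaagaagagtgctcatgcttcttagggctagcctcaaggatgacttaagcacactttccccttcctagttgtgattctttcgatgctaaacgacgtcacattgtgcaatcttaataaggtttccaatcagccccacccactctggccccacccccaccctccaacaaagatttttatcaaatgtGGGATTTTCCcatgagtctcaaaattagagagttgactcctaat
Cxcl10: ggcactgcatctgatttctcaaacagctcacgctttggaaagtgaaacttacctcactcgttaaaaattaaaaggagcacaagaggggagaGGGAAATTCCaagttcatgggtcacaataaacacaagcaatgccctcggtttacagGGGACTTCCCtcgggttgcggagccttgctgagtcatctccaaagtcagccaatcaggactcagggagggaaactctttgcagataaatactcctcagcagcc
Nfkbia: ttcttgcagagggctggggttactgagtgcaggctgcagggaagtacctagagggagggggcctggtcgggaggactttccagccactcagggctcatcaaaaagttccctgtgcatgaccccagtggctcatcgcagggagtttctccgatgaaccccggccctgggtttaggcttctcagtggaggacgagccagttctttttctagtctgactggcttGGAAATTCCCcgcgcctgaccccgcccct

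Shorter stretches of 30 bases around matches in other members are given for comparison with the values below: Tlr2 (chr3:83841762-83841791, minus strand, 2 overlapping matches of which the first is in capitals), Tlr3 (chr8:45410572-45410601, minus strand) and Nlrp3 (chr11:59541373-59541402, plus strand, match on the opposite strand). The last 2 lines show TTCNNNGAA, the motif of STAT factors, which cytokine receptors activate, in Socs3 (chr11:117969501-117969530, minus strand) and Myd88 (chr9:119340045-119340074, minus strand). That motif, which reads the same on both strands, was in 5 of the 32 windows (15.6%) and in 7.02% of all windows. The cyclic AMP response element TGACGTCA was in 0 of the 32 and in 1.55% of all windows. The Tlr2, Tlr3 and Socs3 stretches lie inside the RefSeq intervals of their own genes, so the start they precede is not the gene's outermost.
Tlr2: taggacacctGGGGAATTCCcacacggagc
Tlr3: agttgtttctGGGAGTTTCCtgcttttgag
Nlrp3: ggcttctgcaGGGAACCCCCgggaattctg
Socs3: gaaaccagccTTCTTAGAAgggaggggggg
Myd88: agggcggagcTTCTCGGAAagcgaaagaag

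Apart from Nlrp3 and Lcn2, the genes with too few counts for the test were cytokines and chemokines. Other cytokines and chemokines, Il1a and Il1b among them, had enough counts. So had every cytokine receptor, Toll-like receptor and NF-kB gene of the set. Of the 37 genes, 36 had at least 1 count, and 28 had enough counts for the test. Il6, the gene of interleukin 6, had 0 counts in all 6 libraries, which allows up to 3 counts or 0.0638 to 0.0724 CPM in a library, for counting error alone. The 8 genes that were detected but fell below the filter of edgeR were Nlrp3, Tnf, Ccl2, Ccl3, Ccl4, Ccl5, Cxcl10 and Lcn2, and none of them reached more than 11 counts in any library. No fold change is given for these 9 genes.

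**Figure D1:**
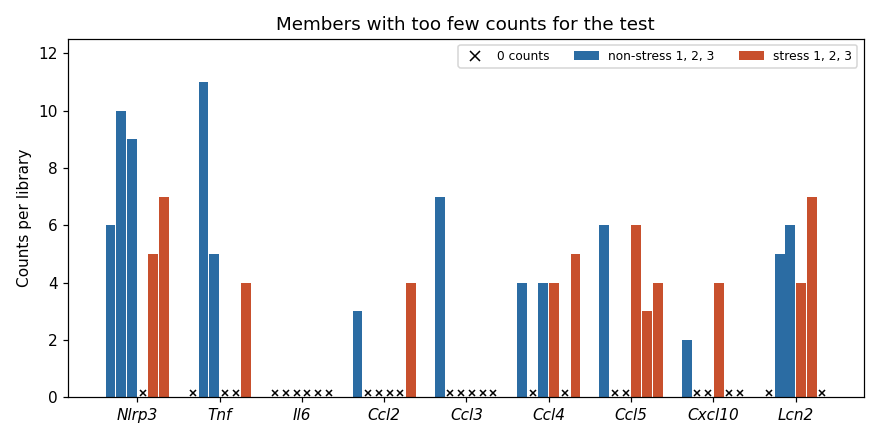
Counts per library (vertical axis) for the 9 genes with too few counts for the test; blue bars are non-stress 1, 2 and 3, red bars are stress 1, 2 and 3, and crosses mark 0 counts. Il6 was at 0 throughout, and the highest bar is Tnf at 11 counts in non-stress 2.

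Tnf, the gene of the cytokine tumour necrosis factor, had 0, 11 and 5 counts in non-stress libraries 1, 2 and 3 and 0, 0 and 4 in stress libraries 1, 2 and 3, the order kept below, so it was at 0 in libraries of both groups. Nlrp3, the sensor of the inflammasome that activates caspase 1, had 6, 10 and 9 counts without stress and 0, 5 and 7 with it, and the groups overlapped. Among the CC chemokines, which draw monocytes and lymphocytes, Ccl2 had 3, 0 and 0 against 0, 0 and 4 counts. Ccl3 had 7, 0 and 0 counts against 0 in each stress library, so its counts came from non-stress 1 alone. Ccl4 had 4, 0 and 4 against 4, 0 and 5, and Ccl5 had 6, 0 and 0 against 6, 3 and 4. The annotated intervals of Ccl3 (chromosome 11, 83647843 to 83649378) and Ccl4 (83648624 to 83664683, GRCm38) share 755 bases, so reads there cannot be assigned with certainty. Cxcl10, an interferon-induced chemokine whose window above holds 2 NF-kB matches, had 2, 0 and 0 counts against 4, 0 and 0. Lcn2, the iron-scavenging acute phase protein lipocalin 2, had 0, 5 and 6 against 4, 7 and 0. The ranges of the groups met or overlapped in each of these 8 genes, and at this depth a difference was not detectable. Il6 lies wholly inside the annotated interval of A230098N10Rik and Cxcl10 inside that of Art3, so their few or absent counts also depend on how shared reads were assigned.

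Levels of different genes were compared per kilobase of annotated exon. Cx3cl1 stood far above the rest of the set, at 205 to 232 CPM per kilobase over the 6 libraries. It encodes fractalkine, a membrane-bound chemokine that neurons make and whose receptor sits on microglia. Nfkbia (22.0 to 24.4) and Il18 (21.0 to 25.5) came next on the same scale, and their ranges overlapped. Rela, the gene of the NF-kB subunit p65, followed at 9.29 to 11.3, above Cxcl12 (5.21 to 6.86) and Il1rap (5.27 to 6.15), which overlapped each other. The Toll-like receptor genes stood lower, with Tlr3 at 0.995 to 1.39 and Tlr2, Tlr7 and Tlr4 each between 0.144 and 0.392 CPM per kilobase. The complement gene C3 was the lowest of the genes tested, at 0.0290 to 0.0868.

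**Figure D2:**
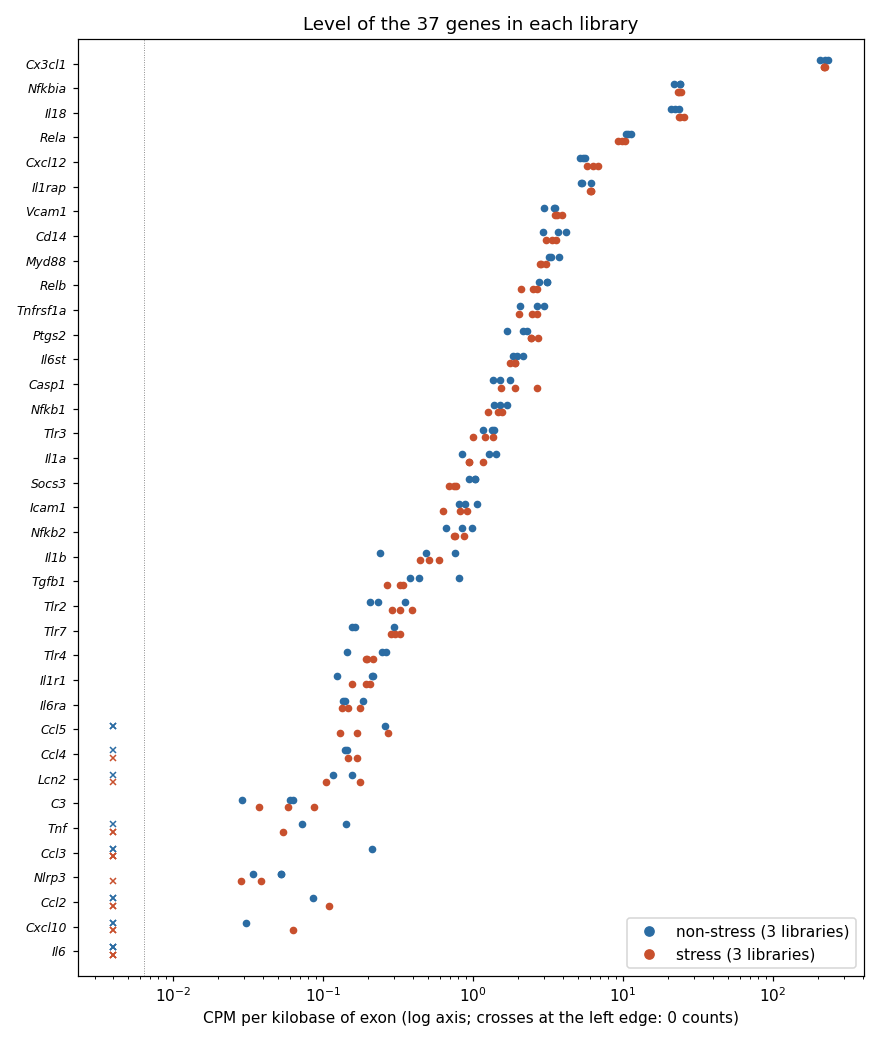
CPM per kilobase of exon on a log axis for the 37 genes, ordered by mean level, with each of the 3 non-stress (blue) and 3 stress (red) libraries as a point and libraries with 0 counts as crosses at the left edge. Cx3cl1 lies at 205 to 232, and every gene with a cross lies below Il6ra in the order.

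The comparison of stress with non-stress asks whether repeated defeat changed this signalling system in the region. In edgeR's quasi-likelihood test, adjusted by Benjamini-Hochberg over all 19227 genes, 0 of the 28 genes passed an adjusted p of 0.05, where 0.00520% of all genes did. Of the 28, 6 (21.4%) had an unadjusted p under 0.05, against 12.1% of all genes: 2 higher in stress (5.80% of all genes) and 4 lower (6.27%). DESeq2 and limma-voom also called 0 of the 28, and DESeq2 gave no adjusted p for 13 of them. They had 5 and 6 of the 28 at an unadjusted p under 0.05, and the share of all genes by these tests was not taken. The median log2 fold change of the 28 was -0.04 (13 above 0 and 15 below), against -5.34e-04 over all genes tested. It was 0.0363 without non-stress 2 and -0.0924 without stress 3, so its sign depended on the libraries used.

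In 7 genes all 3 stress libraries lay on one side of all 3 non-stress libraries (25.0%, against 17.9% of all genes). Cxcl12 and Ptgs2 lay above (8.70% of all genes did) and Socs3, Myd88, Rela, Relb and Tgfb1 lay below (9.20%). In GRCm38 the RefSeq gene intervals are Cxcl12 at chr6:117168535-117181368, Ptgs2 at chr1:150100031-150108234, Socs3 at chr11:117966079-117970336, Myd88 at chr9:119335934-119340018, Rela at chr19:5637442-5648134, Relb at chr7:19606217-19629438 and Tgfb1 at chr7:25687002-25705077. With a library fewer in a group separation is easier to reach. The number was 12 of 28 (42.9%) without non-stress 1, where 37.4% of all genes separated, and 13 of 28 (46.4%) without non-stress 3, where 29.3% did. The number at an unadjusted p under 0.05 was 3 (10.7%) without non-stress 2, against 8.14% of all genes, and 3 without stress 2, against 6.71%.

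**Figure D3:**
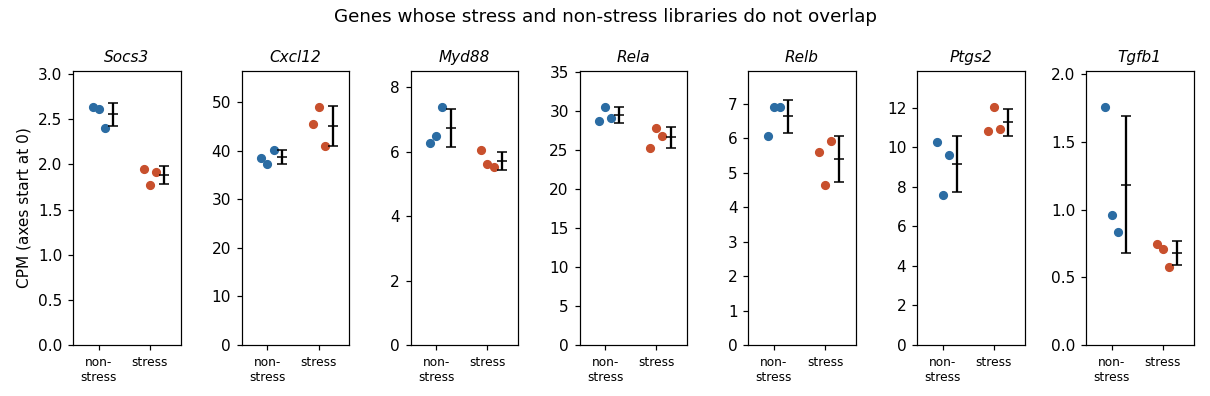
CPM in each library for the 7 genes whose groups did not overlap; points are the 3 libraries of a group in replicate order, bars are the mean and SD (n = 3), and each axis starts at 0. Cxcl12 and Ptgs2 are higher in every stress library, the other 5 genes are lower, and Tgfb1 in non-stress 1 (1.76 CPM) stands above all other libraries.

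The intervals set bounds on what the 6 libraries leave room for. The 95% interval of the log2 fold change lay inside -1 to 1, a change of 2-fold either way, for 25 of the 28 genes. The exceptions were Tlr7, C3 and Tgfb1. It lay inside -0.5 to 0.5 for 15 genes, among them the abundant Cx3cl1, Nfkbia, Il18, Rela and Cxcl12.

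**Figure D4:**
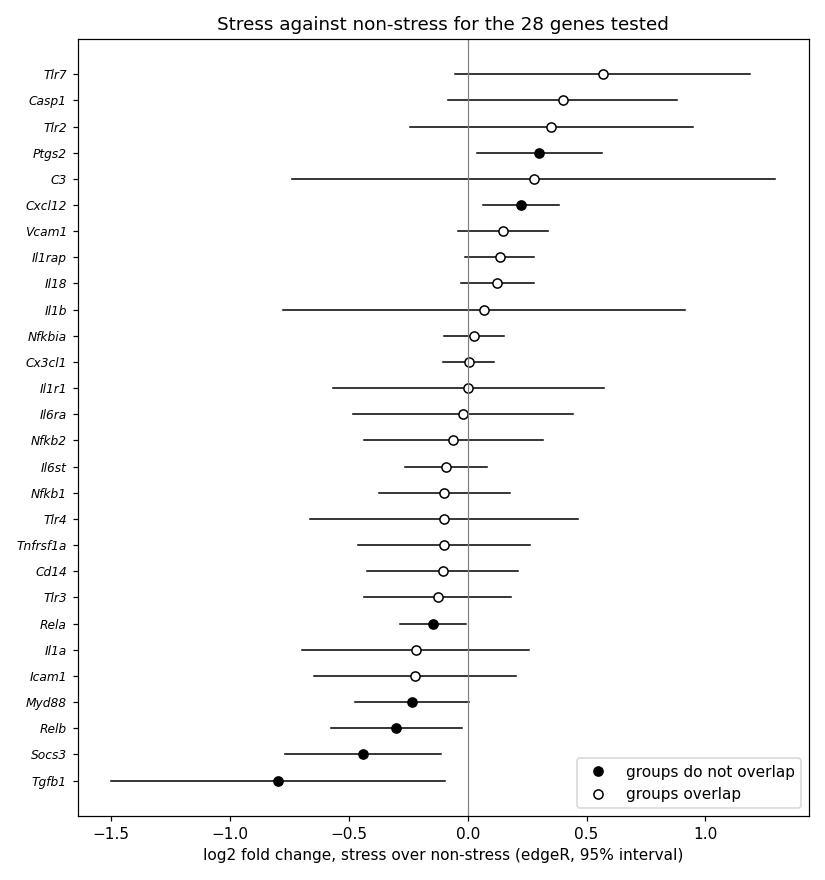
Log2 fold change of stress over non-stress with its 95% interval (edgeR) for the 28 genes tested, ordered by size; filled points are genes whose groups do not overlap. Values run from -0.80 for Tgfb1 to 0.57 for Tlr7, and the shortest interval is that of Cx3cl1, from -0.10 to 0.11.

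The ligands of the interleukin 1 family were measured at very different precision. Il18, the precursor of interleukin 18 that caspase 1 cleaves, stood at 22.9, 21.7 and 24.5 CPM without stress and at 24.8, 26.3 and 24.3 CPM with it. Stress 3 lay below non-stress 3, so the groups overlapped. The log2 fold change was 0.12 (SE 0.07, adjusted p = 0.485). Il1b, the gene of the main secreted interleukin 1, stood at 0.324, 0.659 and 1.02 CPM against 0.603, 0.804 and 0.691 CPM. All 3 stress values lay inside the non-stress range, with a log2 fold change of 0.07 (95% interval -0.78 to 0.91), and the antisense gene Il1bos overlaps it. Il1a, which encodes the alarm cytokine interleukin 1 alpha, stood at 2.80, 2.53 and 1.66 against 2.29, 1.86 and 1.87 CPM (log2 fold change -0.22, adjusted p = 0.701), also overlapping. Its value was -0.07 without non-stress 1 and -0.41 without non-stress 3.

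The signalling receptor of interleukin 1 was scarce and its accessory chain abundant. Il1r1 stood at 0.764, 1.32 and 1.31 CPM without stress and 1.18, 1.26 and 0.959 CPM with it, with a log2 fold change of 0.00 (95% interval -0.57 to 0.57). Il1rap, the accessory protein that completes the receptor and also has a synaptic form in neurons, stood at 52.7, 45.7 and 45.3 CPM against 52.9, 52.7 and 52.0 CPM. The 3 stress libraries and non-stress 1 were alike in Il1rap and non-stress 2 and 3 lower. The log2 fold change of Il1rap was 0.13 (adjusted p = 0.443) and became 0.21 without non-stress 1 (adjusted p = 0.0572). By the same test 756 of all genes passed an adjusted p of 0.05 without non-stress 1, against 1 with all libraries. The values without non-stress 1 given below share that setting. Casp1, the protease that matures interleukins 1 beta and 18, stood at 2.64, 2.25 and 2.04 against 2.85, 2.30 and 4.01 CPM. Its log2 fold change of 0.40 (adjusted p = 0.478) rested largely on stress 3 and was 0.15 without that library.

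In the tumour necrosis factor and interleukin 6 branches the receptors stood far above their ligands. Tnfrsf1a, the widely expressed receptor of tumour necrosis factor, stood at 5.74, 6.45 and 4.42 CPM without stress and 4.39, 5.33 and 5.77 CPM with it (log2 fold change -0.10, adjusted p = 0.831). Il6ra, the interleukin 6 binding chain, had a log2 fold change of -0.02 (95% interval -0.48 to 0.44), with means of 1.33 ± 0.231 and 1.31 ± 0.183 CPM (SD, n = 3). Il6st, which encodes the shared signal transducer gp130, stood at 21.7, 23.7 and 20.2 against 19.5, 20.9 and 21.1 CPM (log2 fold change -0.09, adjusted p = 0.644), or -0.03 without non-stress 2, -0.06 without stress 1 and -0.15 without non-stress 3. Values of all 3 receptors overlapped between the groups.

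Socs3, which encodes the feedback inhibitor that STAT3 induces to shut off gp130, had the smallest unadjusted p of the 5 genes that lay below. It stood at 2.64, 2.62 and 2.40 CPM without stress and 1.95, 1.77 and 1.92 CPM with it. The gap between the groups, from 1.95 to 2.40 CPM, exceeded the SD within either (0.132 and 0.0985, n = 3). The log2 fold change was -0.44 (SE 0.15, 95% interval -0.77 to -0.11), the unadjusted p 0.0136 and the adjusted p 0.351. Over the 13 alternative settings its log2 fold change stayed between -0.48 and -0.40. Its adjusted p lay between 0.206 and 0.732 in the 12 that gave one, DESeq2 giving none. The stretch of its promoter window printed above, which lies inside the gene's annotated interval, holds the STAT motif.

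Of the chemokines abundant enough to test, Cx3cl1 had nearly the same mean in both groups. It stood at 791, 821 and 723 CPM without stress and 780, 784 and 776 CPM with it, and all stress values lay inside the non-stress range. The log2 fold change was 0.00 (SE 0.05) and the 95% interval ran from -0.10 to 0.11. Cxcl12, the chemokine that holds cells bearing Cxcr4 and is made by meningeal, vascular and some neuronal cells, stood at 38.5, 37.3 and 40.2 CPM against 45.5, 49.1 and 41.0 CPM. Stress 3 exceeded non-stress 3 by little, so that the groups were apart but close. Its log2 fold change was 0.22 (SE 0.07, unadjusted p = 0.0108, adjusted p = 0.351), and DESeq2 gave an adjusted p of 0.143, the lowest over all alternatives. Summed meningeal and fibroblast markers were lower in stress, at 260 to 264 against 271 to 288 CPM, although the median log2 fold change of the 9 markers was 0.27. Endothelial markers were at 368 to 387 against 371 to 419 CPM. The part of either in the Cxcl12 values was not tested.

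Among the Toll-like receptors and Cd14, Tlr7 and Tlr2 had log2 fold changes above 0 and Tlr3, Tlr4 and Cd14 below 0, and the libraries of the groups overlapped in all 5. Tlr7, an endosomal sensor of single-stranded RNA on microglia, stood at 0.649, 0.617 and 1.19 CPM without stress and 1.13, 1.29 and 1.20 CPM with it. Non-stress 3 lay among the stress libraries, and the log2 fold change of 0.57 (95% interval -0.05 to 1.19, adjusted p = 0.447) was 0.93 without it (adjusted p = 0.276). Tlr2, the receptor of bacterial lipoproteins, stood at 1.07, 0.702 and 0.618 against 0.989, 0.873 and 1.18 CPM (log2 fold change 0.35, adjusted p = 0.608). Its value was 0.62 without non-stress 1 (adjusted p = 0.245), 0.20 without non-stress 3 and 0.23 without stress 3. Tlr4, the endotoxin receptor, stood at 1.44, 0.787 and 1.36 against 1.06, 1.08 and 1.18 CPM, or -0.10 on the log2 scale (adjusted p = 0.895). Its partner Cd14 stood at 6.05, 6.85 and 4.83 against 5.07, 5.56 and 5.86 CPM, or -0.11 (adjusted p = 0.793). Both overlapped between the groups. Tlr3, a sensor of double-stranded RNA, stood at 5.24, 6.23 and 5.99 against 4.46, 5.42 and 6.11 CPM (log2 fold change -0.13, adjusted p = 0.740). Without stress 1 its value was -0.01, without non-stress 2 -0.07, without non-stress 1 -0.20 and without stress 3 -0.24. Of the 16 microglia markers, 3 were higher and 1 lower at an unadjusted p under 0.05 (25.0%, against 12.1% of all genes), and 0 passed after adjustment. In log2 fold change 8 of these markers lay above 0 and 8 below, with a median of 0.003. Their part in the Tlr2 and Tlr7 values was not tested.

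Myd88, the adaptor that most Toll-like receptors and the interleukin 1 receptor share, was lower in every stress library. It stood at 6.28, 6.49 and 7.39 CPM without stress and 6.03, 5.60 and 5.51 CPM with it. Non-stress 1 and stress 1 were close, and the log2 fold change was -0.23 (SE 0.11, unadjusted p = 0.0559, adjusted p = 0.423).

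Among the NF-kB genes the subunits Rela and Relb were lower in each stress library and the inhibitor overlapped between the groups. Rela stood at 28.7, 30.6 and 29.2 CPM without stress and 25.2, 27.9 and 26.8 CPM with it. Its log2 fold change was -0.15 (SE 0.06, unadjusted p = 0.0402, adjusted p = 0.401). Relb, the subunit of the noncanonical pathway, stood at 6.07, 6.91 and 6.92 against 5.60, 4.64 and 5.93 CPM. Its log2 fold change was -0.30 (SE 0.12, unadjusted p = 0.0362, adjusted p = 0.390). In Relb the highest stress value (5.93) and the lowest non-stress value (6.07) nearly met. Over the 13 alternatives Rela stayed between -0.18 and -0.11 and Relb between -0.38 and -0.20 on the log2 scale, and neither passed adjustment in any.

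Nfkbia, a direct NF-kB target as well as its inhibitor, stood at 34.7, 38.0 and 37.7 CPM without stress and 37.3, 36.6 and 38.5 CPM with it. The groups overlapped throughout, with a log2 fold change of 0.03 (95% interval -0.10 to 0.15). Nfkb1 and Nfkb2, which encode the precursors of p50 and p52, had log2 fold changes of -0.10 (95% interval -0.37 to 0.18) and -0.06 (-0.44 to 0.32), and both overlapped between the groups. For Nfkb1 the value was -0.01 without stress 1, -0.03 without non-stress 3, -0.16 without non-stress 1 and -0.17 without stress 2.

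The effector genes gave values in both directions. Ptgs2 encodes cyclooxygenase 2, which makes prostaglandins and which cortical excitatory neurons also transcribe with activity. It stood at 10.2, 7.57 and 9.63 CPM without stress and 10.8, 12.1 and 10.9 CPM with it, with non-stress 1 close to stress 1. Its log2 fold change was 0.30 (SE 0.12, unadjusted p = 0.0293, adjusted p = 0.386), or 0.18 without non-stress 2 and 0.39 without non-stress 1 (adjusted p = 0.102). The summed neuron markers given above were lower in each stress library than in any non-stress library. Of the 8 markers, 4 had log2 fold changes above 0 and 4 below, with a median of -0.01. Their part in the Ptgs2 values was not tested. Icam1, the endothelial and glial adhesion molecule that NF-kB induces, stood at 2.04, 2.70 and 2.26 against 2.07, 1.61 and 2.32 CPM (log2 fold change -0.22, adjusted p = 0.655). Its value was -0.09 without stress 2, -0.10 without non-stress 2 and -0.34 without stress 3. Vcam1, its counterpart for the integrin of lymphocytes and monocytes, stood at 17.6, 17.2 and 14.9 against 17.5, 18.0 and 19.6 CPM (log2 fold change 0.15, adjusted p = 0.501), or 0.08 without non-stress 3 and 0.10 without stress 3. C3, the central complement component, had 14, 7 and 13 counts against 8, 13 and 20, and its 95% interval of -0.74 to 1.29 excluded little.

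Tgfb1, the gene of the anti-inflammatory cytokine TGF-beta 1 on which microglial identity depends, had the largest log2 fold change in size of the 28 genes and one of the widest intervals. It had 76, 45 and 35 counts without stress and 31, 31 and 26 with it, or 1.76, 0.957 and 0.832 against 0.748, 0.712 and 0.580 CPM. Non-stress 1 stood apart from the other two non-stress libraries. With all libraries the log2 fold change was -0.80 (SE 0.31, 95% interval -1.50 to -0.09, unadjusted p = 0.0302, adjusted p = 0.386), and without non-stress 1 it was -0.40 (adjusted p = 0.451). The summed microglia markers overlapped between the groups.

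The members varied more between non-stress than between stress libraries. The SD of CPM was smaller in stress for 20 of the 28 genes (71.4%), as it was for 64.8% of all genes tested, and the median coefficient of variation was 13.8% in non-stress and 8.94% in stress, against 9.07% and 6.07% over all genes. In Cx3cl1 the SD was 50.1 CPM without stress and 3.71 CPM with it (n = 3).

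The wider pathways were read from 8 lists of 235 other genes, of which 175 were tested. By edgeR 0 passed an adjusted p of 0.05, 11 were higher and 10 lower at an unadjusted p under 0.05, and the groups did not overlap in 30 (17.1%, against 17.9% of all genes). Their median log2 fold change was -0.04, with 63 above 0 and 112 (64.0%) below. In the list of TNF superfamily genes 20 of 23 (87.0%) lay below 0, against 50.2% of all genes, with a median of -0.12. At an unadjusted p under 0.05 there was 1 of the 23 (4.35%), against 12.1% of all genes. That gene was Fas, the death receptor, at 2.62, 3.02 and 3.30 CPM without stress and 2.03, 2.41 and 1.96 CPM with it (log2 fold change -0.48, adjusted p = 0.351). Traf2, an adaptor of these receptors, gave -0.15 (adjusted p = 0.484).

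**Figure D5:**
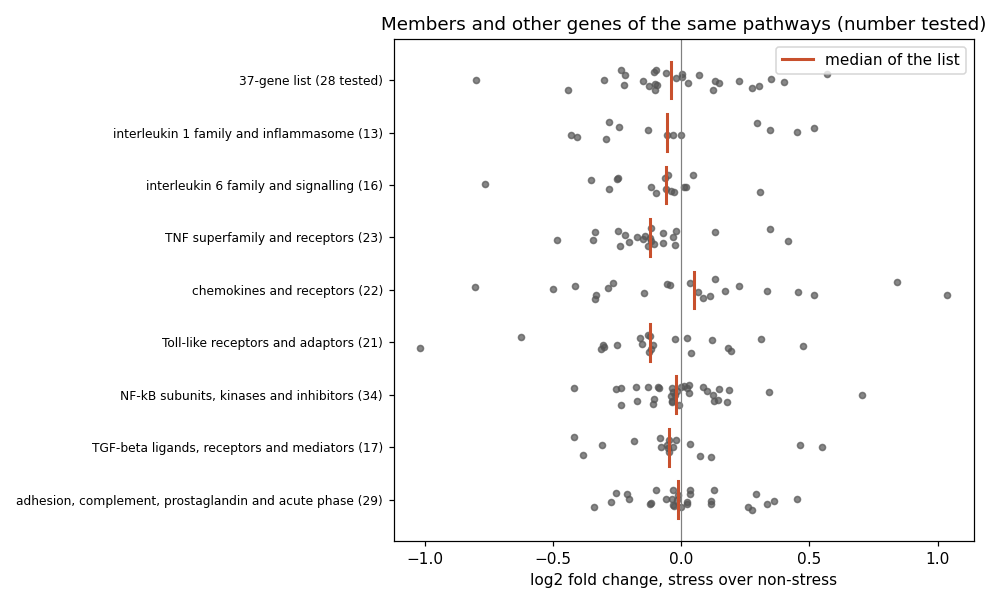
Log2 fold change of stress over non-stress (horizontal axis) for the 28 genes tested and for 8 lists of other pathway genes, 1 point a gene, with vertical placement random and the median as a red line. The medians lie between -0.12 and 0.05.

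For the interleukin 6 family, 12 of 16 other genes (75.0%) lay below 0, against 50.2% of all genes. Of the 16, 3 (18.8%) were lower at an unadjusted p under 0.05, against 6.27% of all genes. Lifr, the receptor of leukaemia inhibitory factor that pairs with gp130, stood at 22.2, 21.2 and 18.9 CPM without stress and 17.2, 16.6 and 17.5 CPM with it (log2 fold change -0.28, adjusted p = 0.344). Cntfr, the binding chain for ciliary neurotrophic factor, stood at 48.2, 60.6 and 57.3 against 46.4, 46.3 and 47.2 CPM (log2 fold change -0.25, adjusted p = 0.351). In both the stress libraries lay below all non-stress libraries, non-stress 1 being the nearest in Cntfr. Among 17 TGF-beta genes 1 was higher and 3 lower at an unadjusted p under 0.05 (23.5%, against 12.1% of all genes). Smad7, the inhibitory Smad that TGF-beta induces, stood at 9.29, 9.93 and 8.87 against 6.997, 7.23 and 6.80 CPM (-0.42 on the log2 scale, SE 0.09, adjusted p = 0.344). Itgb8, a subunit of the integrin that releases active TGF-beta, stood at 3.29, 2.60 and 2.47 against 4.20, 4.27 and 3.77 CPM (log2 fold change 0.55, adjusted p = 0.344). Both separated fully by group, in opposite directions.

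The remaining lists were mixed. Among 21 other Toll-like receptor genes 2 were higher and 2 lower at an unadjusted p under 0.05 (19.0%, against 12.1% of all genes). Lbp, the endotoxin-binding protein that hands its ligand to Cd14, had 52, 47 and 36 counts without stress and 30, 13 and 22 with it (log2 fold change -1.02, SE 0.32, adjusted p = 0.351). Ly86, the partner of the receptor-like protein Cd180 on microglia and itself in the microglia list, stood at 10.007, 8.59 and 9.13 against 11.1, 12.2 and 11.1 CPM (0.31 on the log2 scale, adjusted p = 0.344). Of 34 other NF-kB genes 3 were higher and 1 was lower at an unadjusted p under 0.05 (11.8%, against 12.1% of all genes). The smallest p belonged to Card10, a scaffold upstream of the IkB kinases. Card10 stood at 22.8, 16.6 and 14.7 CPM without stress and 29.0, 27.4 and 31.7 CPM with it (0.70 on the log2 scale, SE 0.14, adjusted p = 0.309). Nkrf, a repressor of NF-kB promoters, gave 0.15 (adjusted p = 0.351).

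Of 13 other interleukin 1 and inflammasome genes 2 were higher and 0 lower at an unadjusted p under 0.05 (15.4%, against 12.1% of all genes). Txnip, a thioredoxin inhibitor that can bind NLRP3, stood at 9.10, 7.57 and 9.70 CPM without stress and 11.1, 11.9 and 10.5 CPM with it (log2 fold change 0.34, adjusted p = 0.351), and the synaptic receptor-like gene Il1rapl2 had one of 0.52 (adjusted p = 0.351). Of 22 other chemokine genes 2 were higher and 0 lower at an unadjusted p under 0.05 (9.09%, against 12.1% of all genes). These were the receptors Ccr6 (log2 fold change 0.33, adjusted p = 0.404) and Ccr1 (0.84, adjusted p = 0.406). Ccr1 had only 27, 15 and 10 counts against 26, 34 and 32. Of 29 adhesion, complement and prostaglandin genes 1 was higher and 0 lower at an unadjusted p under 0.05 (3.45%, against 12.1% of all genes). It was the prostaglandin E2 receptor Ptger3, at 3.98, 3.11 and 4.21 against 6.06, 4.71 and 4.68 CPM (log2 fold change 0.45, adjusted p = 0.363). The acute phase gene Serpina3n, a marker of reactive astrocytes, gave 0.13 (adjusted p = 0.473).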

How the data were processed

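RNA was sequenced from 3 non-stress and 3 stress libraries, prepared from total RNA with SMARTer and TruSeq kits per the labels' protocols. Trimmomatic 0.38, HISAT2 and StringTie with build GRCm38 (mm10) are named per the submitters' processing notes. Not given in the sources used here: the counting step, annotation and strand. Reads of overlapping genes, which 14 of the 37 members have, may therefore be split between them. The authors deposited whole-number counts per gene, which were used unchanged.

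edgeR 4.0.16 (R 4.3.3) tested stress against non-stress by its quasi-likelihood test, two-sided, with group as the single term, TMM size factors and the 19227 of 45777 genes that filterByExpr kept. Adjustment was Benjamini-Hochberg's over these genes (threshold 0.05). The SE is the log2 fold change over the root of F, and intervals (95%) use the test's degrees of freedom. The prior count of log2 CPM was 2, and the limit set beside 0 counts was 3 counts. Intervals and floors on counts cover counting error only. Exon lengths are unions of GENCODE M21 basic exons, and positions and promoters are RefSeq's for GRCm38.p6. Alternatives were RLE or no size factors, no filter or 50 counts in 3 libraries, DESeq2 1.42.0, limma-voom (limma 3.58.1), replicate number as a block, and each library left out. No pair of libraries of the same group agreed within sampling noise (chi-square per degree of freedom 4.61 to 21.0). The steps were tested on simulated data. Every member is named, and of each pathway list the 2 genes of smallest p. The members, lists and tests were chosen with earlier results of these data known.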

Additional observations from a re-analysis of the deposited data

How the results depend on the processing

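No member given an adjusted p passed 0.05 in any of the 13 alternatives, and the lowest was 0.0572 (Il1rap without non-stress 1). The filter of 50 counts in 3 libraries tested 24 of the 28, and DESeq2 gave 15 of the 28 an adjusted p. Over all genes the count past the threshold, 1 with all libraries, was 127 by DESeq2, 2 by limma-voom and 2 with replicate number as a block, and 1 to 756 with each library left out, the highest without non-stress 1. Same-numbered libraries did not deviate together (r = 0.016, -0.030 and 0.021 across genes), and not every library correlated best with its own number. With the block 5 members were at an unadjusted p under 0.05, against 6, and the share of all genes was not taken. With each library left out the members at that p were 3 to 8 (10.7% to 28.6%, against 6.52% to 19.5% of all genes). Members whose groups did not overlap were then 8 to 13 (28.6% to 46.4%, against 24.9% to 37.4% of all genes). With all libraries there were 7 (25.0%, against 17.9%). The median log2 fold change with each library left out was -0.0924 to 0.0363. Of 360 member values under the alternatives 340 kept their sign and 20, in 10 genes, changed it. Without a filter Il1r1 was at -2e-04 and Cx3cl1 at -4e-04. With each library left out, log2 fold changes ran from -0.26 to 0.50 for Il1b, -0.21 to 0.13 for Il1r1, -0.24 to 0.026 for Tnfrsf1a, -0.13 to 0.14 for Il6ra, -0.048 to 0.046 for Cx3cl1, -0.33 to 0.057 for Tlr4, -0.23 to 0.019 for Cd14, -0.20 to 0.090 for Nfkb2, -0.015 to 0.053 for Nfkbia and -0.070 to 0.52 for C3. The cause was not tested. Depth limits the 9 members at 11 counts or fewer, for which no direction is given.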
